A study of Rattus norvegicus with 28 samples.

Results

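BAY 41-8543, a stimulator of soluble guanylate cyclase, was given to double transgenic rats (dTGR), and the left ventricular transcriptome of 12 treated dTGR was set against that of 8 vehicle dTGR. These 20 arrays were chosen by the treatment in the sample labels and are part of 28 arrays in the series. Treated dTGR received 3 mg/kg/day by oral gavage once daily, and vehicle dTGR received the carrier, a mixture of Transcutol, Cremophor-EL and water. Per the labels, gavage ran from 4 to 7 weeks of age in male rats, whereas the design text gives 4 weeks of treatment, and no value below uses the duration. Both groups carry the human angiotensinogen and human renin transgenes (strain label SD-Tg(hAGT)L1623xTg(hREN)L10J), and the labels give the phenotype as HFpEF with induced hypertension. The 8 arrays of untreated Sprague Dawley rats, which carry neither transgene, entered the estimate of spread, and their levels are given for orientation without a comparison. Neither human transgene was analysed here.

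Soluble guanylate cyclase is a heterodimer of an alpha and a beta subunit that binds nitric oxide (NO) at a haem group and makes cyclic GMP from GTP. Cyclic GMP acts through cyclic GMP-dependent protein kinase, ion channels and phosphodiesterases, and it relaxes vascular smooth muscle. Stimulators of the enzyme raise its activity without NO and make it more responsive to NO. In dTGR, human renin cleaves human angiotensinogen, so the rats form angiotensin II in excess and become hypertensive.

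All levels are log2 of the authors' normalized intensity, 1 brightest probe stands for each gene with a single symbol, and differences are treated minus vehicle on the log2 scale with their standard error (SE). The fit covered 11493 genes above an intensity filter at 5.65, and a gene was called at an adjusted p under 0.05 (limma, Benjamini-Hochberg over all of these genes). Median intensities lay between 99.5 and 107 on all arrays, and the median difference over all genes was 0.00974. The myocyte markers Tnnt2 (cardiac troponin T) and Mb (myoglobin), chosen after their values were seen, were among the highest levels in both groups, at 16.37 and 16.85 on average in treated arrays. The labels name no batch. They do number the animals, and the numbers of treated and vehicle dTGR form separate blocks, so treatment and block cannot be told apart.

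Of the 11493 genes, 1125 were called (9.79%), 617 of them higher (5.37%) and 508 lower (4.42%) in treated dTGR. Counts of called list members below are to be read beside these shares. At least 1.5-fold changes were seen in 196 of the higher and 218 of the lower genes. The count was 659 without vehicle replicate 4, 733 without vehicle replicate 5 and 2065 without vehicle replicates 6 and 7. Fitted on the 20 dTGR arrays alone it was 867, with 840 of the 1125 kept. Among the genes named by rule and described below, the calls of Acsl1, Adra1d, Atf3, Cav1, Ccn1, Csrp3, Dusp1, Dusp2, Fcer2, Flnc, Fndc1, Hspa1b, Kcna5, Kcnmb1, Notch3, Pde4d, Plat, Racgap1, Timp1 and Txnrd1 were lost in that fit. Genes named after their values were seen are not covered by this list, and some of them lost their calls too. The genes that fell most were Mt2A and Mt1f (metallothioneins, which bind zinc and copper), Gal (the neuropeptide galanin), Angptl4 (an inhibitor of lipoprotein lipase), Ankrd2 (a stretch-responsive muscle ankyrin repeat protein) and Fos (a subunit of the AP-1 transcription factor). Aplnr, the receptor of the vasoactive peptides apelin and Elabela, rose most. For each of these genes the levels of treated and vehicle arrays overlapped.

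The 12 treated arrays lay close together on the first principal component, which held 23.0% of the variance over the 20 arrays, with scores from -14.9 to -6.40. Of the vehicle arrays, replicates 6 and 7 scored like treated arrays (-13.2 and -11.5), replicate 3 scored 2.94, and replicates 1, 2, 4, 5 and 8 scored between 21.8 and 43.4. Of the 1125 called genes, vehicle replicate 6 lay within the range of the treated arrays in 975, replicate 7 in 967 and replicate 3 in 654, whereas the other 5 did so in 110 to 251. Each treated array lay within the range of the other 11 in 864 to 1017 of these genes. The median over the genes called lower stood 0.60 to 0.87 above the treated mean in vehicle replicates 1, 2, 4, 5 and 8, and 0.29, 0.02 and 0.03 above it in replicates 3, 6 and 7. Because the genes were called from these same arrays, these counts and medians are not independent of the calls and only describe the arrays. No label sets replicates 3, 6 and 7 apart from the others, and they were kept in every value except where their removal is named.

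**Figure D1:**
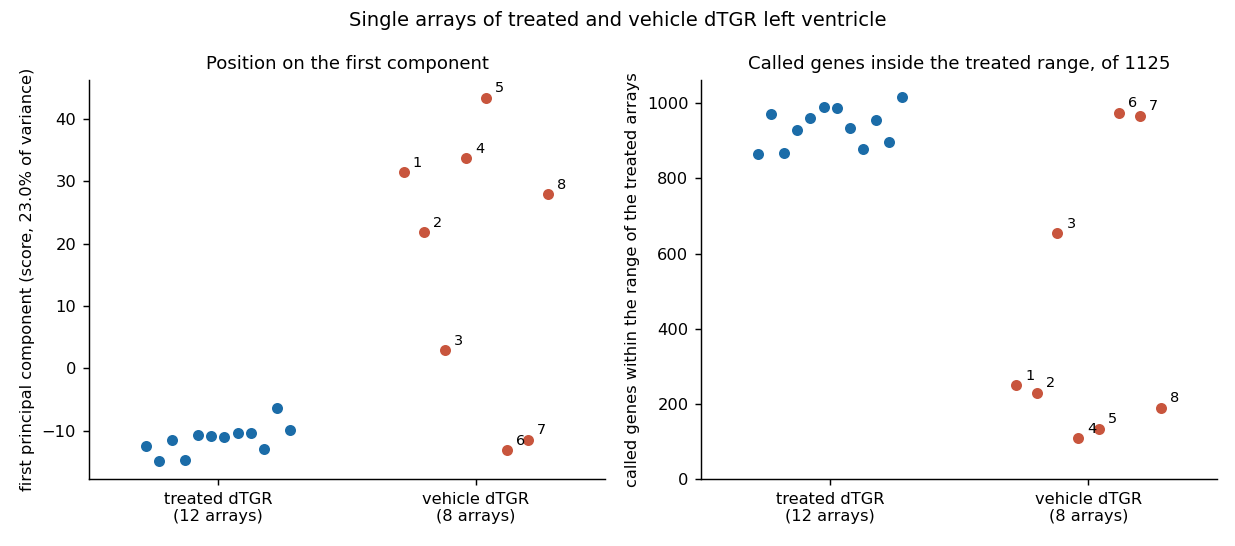
Left, score on the first principal component (unitless, 23.0% of the variance) of each treated (12) and vehicle (8) dTGR array; right, the number of the 1125 called genes whose level lay within the range of the treated arrays (for a treated array, of the other 11). Points are arrays and vehicle points carry their replicate number. Vehicle replicates 6 and 7 sit with the treated arrays in both plots. The right plot is not independent of the calls, which come from these same arrays.

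Only 7 of the 11493 genes (0.0609%) had treated and vehicle arrays that did not overlap, and all 7 were higher in treated dTGR. Ddah2, which degrades the NO synthase inhibitor ADMA, measured 11.63 to 11.85 (median 11.75) in treated arrays and 10.64 to 11.56 (median 11.40) in vehicle arrays (difference 0.43 ± 0.08, adjusted p = 0.00144). Ppara, the fatty acid receptor that drives genes of fat oxidation, measured 12.96 to 13.24 (median 13.06) in treated and 12.27 to 12.95 (median 12.80) in vehicle arrays (0.37 ± 0.07, adjusted p = 0.00125). The vehicle arrays of both genes all lay below the lowest treated array. The other 5, named after their values were seen, were Bloc1s5 (0.49), Dhx35 (0.56), Dnajc13 (0.19), Fam135a (0.50) and Mpzl1 (0.44). No gene that fell separated the groups.

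Vehicle arrays were the more widely spread in most genes. The standard deviation over vehicle arrays exceeded that over treated arrays in 7481 genes (65.1%), with medians of 0.234 in treated arrays, 0.296 in vehicle arrays and 0.247 in Sprague Dawley arrays. The median ratio of vehicle to treated standard deviation was 1.18 over all genes, 2.17 over genes called lower and 1.88 over genes called higher, which are not independent of the calls. A test of the absolute deviations from the group median (limma, 20 arrays) called 49 genes (0.426%), all with the smaller spread in treated dTGR. At an unadjusted p under 0.05 it held 1284 genes, 1202 with the smaller spread in treated dTGR. Of the 49, 45 were also called for their level, 22 lower and 23 higher. The 8 with the widest gap in spread were Aplnr, Fos, Gal, Irs2, Lrrc3b, Myc, Sdc4 and Tinagl1. Gal had a standard deviation of 0.502 in treated and 2.19 in vehicle arrays, and for Myc the values were 0.181 in treated and 1.23 in vehicle arrays. The number called for spread moved with single arrays, to 0 without treated replicate 6 or 12, to 10 to 19 without any other treated replicate, to 25 or 26 without vehicle replicate 7 or 6, and to 88, 103 and 77 without vehicle replicates 1, 2 and 8. With squared deviations it was 0 as well, with 1129 genes at an unadjusted p under 0.05.

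**Figure D2:**
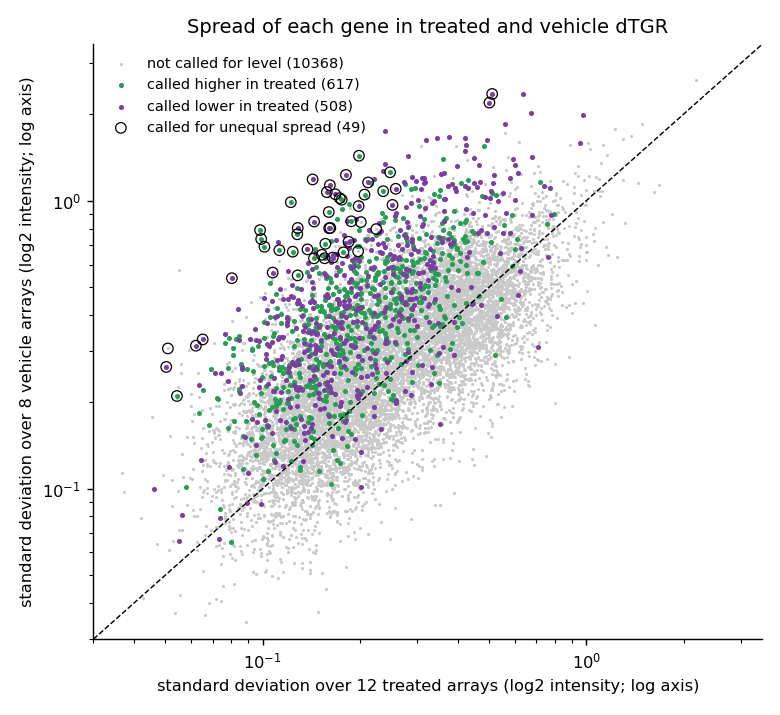
Standard deviation of each of the 11493 genes over the 12 treated arrays (horizontal) and over the 8 vehicle arrays (vertical), both in log2 intensity on log axes. Points are genes, coloured by the call for level, circles mark the 49 genes called for unequal spread, and the dashed line marks equal spread; 7481 genes lie above it.

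Among 37 genes of NO and cyclic GMP signalling, 28 were measured, of which 5 were called higher and 1 lower, with a median difference of 0.12. None of the measured subunits of the drug's target was called. Gucy1b1, the haem-binding beta subunit, measured 10.06 to 10.44 (median 10.20) in treated and 9.57 to 10.43 (median 10.15) in vehicle arrays (0.12 ± 0.09, adjusted p = 0.467). The alpha subunits Gucy1a1 (0.07 ± 0.10, adjusted p = 0.741) and Gucy1a2 (0.11 ± 0.08, adjusted p = 0.466) were not called either. For these 3 subunits at most 2 vehicle arrays lay outside the treated range.

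Of the NO synthases, Nos2 was called. Nos2, the inducible enzyme, measured 8.09 to 9.18 (median 8.48) in treated arrays and 6.87 to 8.43 (median 7.41) in vehicle arrays, beside 7.67 to 8.81 (median 8.36) in Sprague Dawley arrays, and it rose 2.03-fold (1.02 ± 0.19, adjusted p = 0.00114). All vehicle arrays but replicates 6 and 7 lay below the lowest treated array. Nos3, the endothelial enzyme, had a difference of -0.15 ± 0.07 (adjusted p = 0.214) and Nos1, the neuronal enzyme, one of 0.17 ± 0.15 (adjusted p = 0.546). Of the genes around them, Ddah2 rose as given above and Ddah1 was not called (0.27 ± 0.12, adjusted p = 0.173). Cav1, which encodes the caveolar protein that holds Nos3 inactive, was 0.20 higher (adjusted p = 0.0316), a call that ended when any of 8 arrays was left out: vehicle replicates 1, 2, 4, 5 and 8 (adjusted p up to 0.0924) and treated replicates 4, 6 and 10. Gch1, which makes the NO synthase cofactor tetrahydrobiopterin, and the arginases Arg1 and Arg2, which compete for arginine, were not called (differences of -0.43, -0.11 and -0.03), nor was Nosip (0.06).

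The phosphodiesterases that degrade cyclic GMP showed no call. Pde5a measured 9.38 to 9.98 (median 9.75) in treated and 9.18 to 9.82 (median 9.60) in vehicle arrays (0.17 ± 0.09, adjusted p = 0.241). Pde9a (-0.17), Pde2a (0.14), Pde3a (0.21, adjusted p = 0.0602), Pde3b (-0.03) and Pde1b (-0.22) were not called. Pde6d (0.14), which encodes a prenyl-binding protein and no catalytic subunit, was not called either. Of the enzymes selective for cyclic AMP, Pde8a fell, with 9.98 to 10.36 (median 10.14) in treated and 10.13 to 10.79 (median 10.47) in vehicle arrays (-0.35 ± 0.08, adjusted p = 0.00477), Pde7a did not pass (-0.04), and Pde4d rose by the brightest of its probes (0.35 ± 0.10, adjusted p = 0.0295). The other 2 filtered probes of Pde4d gave -0.05 and -0.22 without a call, and its call ended without vehicle replicate 1, 4 or 8 or treated replicate 1, 6 or 8 (adjusted p up to 0.89 over all alternatives, the other probes included). Kcnmb1, the beta subunit of the large-conductance potassium channel of smooth muscle, was 0.29 higher at the edge of the threshold (adjusted p = 0.0447). It was not called without vehicle replicate 1, 4, 5 or 8 or without treated replicate 1, 2, 3, 5, 6, 7, 8, 10 or 12 (adjusted p up to 0.138). Vasp, a classical substrate of cyclic GMP-dependent protein kinase, lay just outside the threshold (0.32 ± 0.10, adjusted p = 0.0501). The natriuretic peptide receptors Npr1 (-0.14) and Npr2 (0.01), which are guanylate cyclases of the membrane, and the clearance receptor Npr3 (0.53) were not called. The number of called members fell to 3 in the fit on the 20 dTGR arrays and without vehicle replicate 4 or 8 or treated replicate 6. It rose to 11 with vehicle replicates 6 and 7 left out.

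Of 15 measured genes of hypertrophy and the fetal program, 3 were called and all 3 fell. Ankrd2 measured 6.77 to 9.32 (median 8.13) in treated arrays and 7.25 to 12.44 (median 11.49) in vehicle arrays, beside 6.17 to 7.81 (median 6.94) in Sprague Dawley arrays (-2.24 ± 0.49, adjusted p = 0.00368). Vehicle replicates 3, 6 and 7 lay within the treated range and the other 5 lay above it. The other called members, Csrp3 (-0.17, adjusted p = 0.0479) and Flnc (-0.45, adjusted p = 0.048), which encode muscle LIM protein and filamin C, lost their calls without vehicle replicate 1, 2, 3, 4, 5 or 8 and without several treated or Sprague Dawley arrays (adjusted p up to 0.145 and 0.131), and without vehicle replicate 1 the difference of Flnc was -0.29. The natriuretic peptides, named after their values were seen, did not follow. Nppa measured 14.55 to 16.26 (median 15.77) in treated and 15.30 to 16.20 (median 15.70) in vehicle arrays (-0.06 ± 0.43, adjusted p = 0.957), and Nppb measured 14.87 to 15.49 (median 15.30) in treated and 14.30 to 15.62 (median 15.17) in vehicle arrays (0.23 ± 0.21, adjusted p = 0.574). The groups overlapped over most of their range for both.

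Ace, the angiotensin-converting enzyme, was the 1 called gene of 8 measured members of the renin-angiotensin system (12.5%, beside 9.79% over all genes). It fell 2.02-fold. Its levels were 9.68 to 10.54 (median 10.03) in treated, 10.03 to 12.18 (median 11.33) in vehicle and 9.43 to 10.35 (median 9.83) in Sprague Dawley arrays (-1.02 ± 0.19, adjusted p = 0.00143), and vehicle replicates 3, 6 and 7 lay within the treated range. The call held in every alternative tried.

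Vasoactive peptides and their receptors moved in both directions, with 3 of 17 measured members higher and 3 lower. Aplnr measured 12.87 to 13.61 (median 13.25) in treated arrays and 9.84 to 13.45 (median 11.31) in vehicle arrays, beside 12.46 to 13.38 (median 12.86) in Sprague Dawley arrays, and rose 3.38-fold (1.76 ± 0.32, adjusted p = 0.000939). Its ligand Apln, apelin, rose as well, with 10.65 to 11.71 (median 11.02) in treated and 9.31 to 11.40 (median 9.94) in vehicle arrays (0.96 ± 0.21, adjusted p = 0.00345). Rxfp1, the relaxin receptor, rose 2.34-fold, with 8.20 to 9.66 (median 9.13) in treated and 6.89 to 9.06 (median 8.05) in vehicle arrays (1.23 ± 0.21, adjusted p = 0.000659). Here vehicle replicates 6 and 7 lay below the treated range and replicates 3 and 8 within it. Gal went the other way. Treated arrays lay at 4.12 to 5.82 (median 5.07), around the filter level of 5.65, vehicle arrays at 5.05 to 11 (median 8.42) and Sprague Dawley arrays at 4.55 to 5.81 (median 4.99). Galanin was at least 5.05-fold lower in treated dTGR (-2.92 ± 0.51, adjusted p = 0.000659), with vehicle replicates 6 and 7 at 5.05 and 5.65 and the other 6 at 6.03 or above. Ece1, which matures endothelins (-0.42), and Adm, adrenomedullin (-0.35), also fell and are named after their values were seen.

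**Figure D3:**
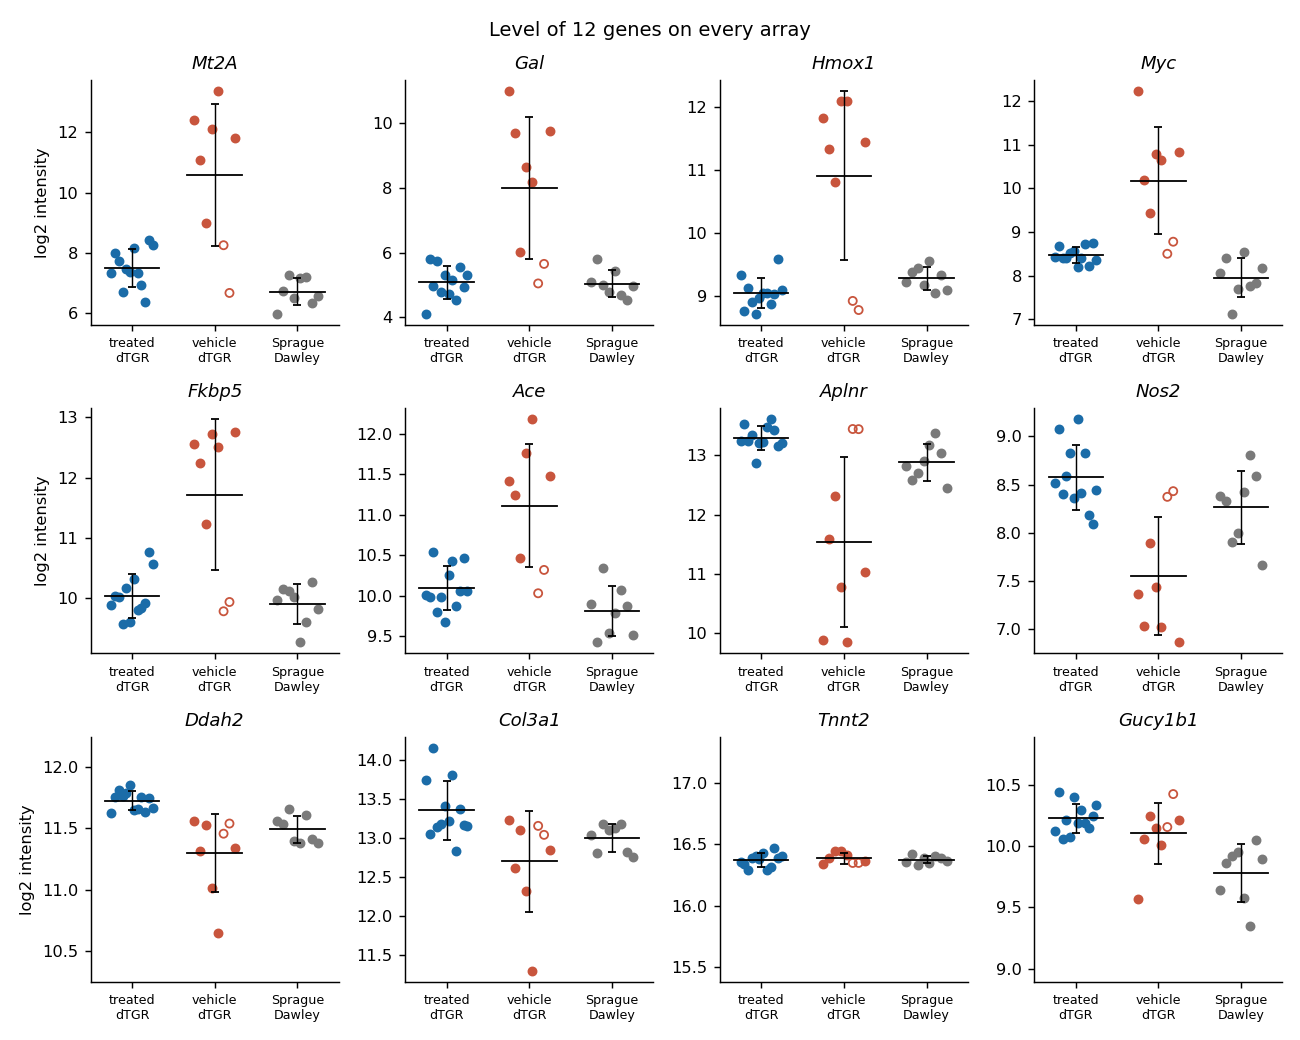
Level (log2 intensity) of 12 genes on every treated dTGR (12), vehicle dTGR (8) and Sprague Dawley (8) array. Points are arrays, open points are vehicle replicates 6 and 7, bars give the mean and standard deviation, and each axis spans at least 2 log2 units. Mt2A, Gal, Hmox1, Myc, Fkbp5 and Ace spread upward in vehicle arrays, Aplnr and Nos2 spread downward, and Tnnt2 averages 16.37 in treated and 16.39 in vehicle arrays.

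Of 13 adrenergic and related receptors and partners, 4 rose and none fell: Adra1a (0.43 ± 0.09, adjusted p = 0.00263), Adra1d (0.97), Gcgr, the glucagon receptor (1.02), and Akap6, which anchors protein kinase A at the nuclear envelope (0.39). Adra1a, the alpha 1A adrenergic receptor, measured 11.47 to 11.71 (median 11.55) in treated and 10.71 to 11.68 (median 11.03) in vehicle arrays, and only vehicle replicate 7 reached the treated range. Adra1d lost its call without vehicle replicate 1, 2, 4, 5 or 8 (adjusted p up to 0.0866). Of 17 potassium channel genes 4 were called higher and 1 lower, Kcna5. Kcnd2, a pore subunit of the transient outward current, measured 10.44 to 11.22 (median 10.68) in treated and 8.72 to 10.98 (median 9.63) in vehicle arrays, beside 11.33 to 11.83 (median 11.54) in Sprague Dawley arrays (1.01 ± 0.21, adjusted p = 0.00217). Kcna4 (0.79 ± 0.19) and Kcnj11, the pore of the ATP-sensitive channel (0.49 ± 0.13), also rose. Kcna5, a pore subunit of the ultrarapid current, measured 7.44 to 10.31 (median 8.70) in treated and 8.06 to 10.89 (median 10.03) in vehicle arrays (-0.96 ± 0.31, adjusted p = 0.0443). Its call ended in 20 of 42 alternatives (adjusted p up to 0.105), among them leaving out any vehicle replicate but 6 and 7 or any treated replicate but 4, 5 and 6. The potassium channel count fell to 3 in the fit on the 20 dTGR arrays and without vehicle replicate 2, 4 or 8 or treated replicate 1, 3, 8 or 10. Kcnn3, a calcium-activated potassium channel that was outside the lists, was among the 12 genes that rose most (1.21 ± 0.23, adjusted p = 0.00114). Scn4b, a sodium channel beta subunit, was the only call among 13 sodium channel, calcium channel and connexin genes (7.69%, beside 9.79% over all genes) and rose 2.13-fold (1.09 ± 0.25, adjusted p = 0.00524). Of 12 calcium handling genes only Jph2 (8.33%), which ties the sarcoplasmic reticulum to the T-tubule, was called (0.37 ± 0.10, adjusted p = 0.0179), and it was not without vehicle replicate 2, 4 or 5 (adjusted p up to 0.0647). Without vehicle replicate 6, 2 calcium genes were called, and without vehicle replicate 3, 6 or 7, 2 sodium and calcium channel genes were.

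Immediate early transcription factors, which cells switch on within minutes of a stimulus, were called lower in 14 of 19 measured members and higher in none, with a median difference of -0.66. Fos measured 6.47 to 8.43 (median 7.28) in treated arrays and 7.07 to 14.18 (median 9.45) in vehicle arrays, beside 6.13 to 7.13 (median 6.71) in Sprague Dawley arrays (-2.18 ± 0.54, adjusted p = 0.00847). Vehicle replicate 1 stood at 14.18, the next at 10.49, and replicates 3, 6 and 7 lay within the treated range. Myc, a driver of growth and ribosome production, measured 8.21 to 8.75 (median 8.42) in treated and 8.50 to 12.23 (median 10.43) in vehicle arrays (-1.70 ± 0.29, adjusted p = 0.000659), and only vehicle replicate 6 lay within the treated range. Junb, the AP-1 partner of Fos, followed (-1.32 ± 0.26, adjusted p = 0.00168). Atf3 fell by 1.33 with an SE of 0.39 (adjusted p = 0.0247; 0.063 in the fit on the 20 dTGR arrays). Vehicle replicate 1 stood at 14.64 and the next array at 10.55, and without replicate 1 the difference was -0.74 and still called. The remaining calls, named after their values were seen, were Nr4a1 (-1.27), Fosl1 (-1.10), Egr1 (-1.05), Ier2 (-0.71), Maff (-0.66), Ier3 (-0.61), Klf2 (-0.60), Jun (-0.59), Klf4 (-0.54) and Klf6 (-0.43). The count was 7 without vehicle replicate 5, 9 without vehicle replicate 8, 8 in the fit on the 20 dTGR arrays and 17 at most. Fos, Myc and Junb kept their calls in the 20-array fit, so its losses other than Atf3 fell among the remaining calls. Several immediate early genes respond to serum response factor, which binds CArG boxes (CC, 6 bases of A or T, GG). The promoter window of Egr1 (RefSeq, GRCr8, chr18:26736828-26737127, plus strand, 250 bases before to 50 after the start) is shown because it holds 2 CArG boxes and 2 cyclic AMP response element cores (TGACG on either strand), in capitals.
Egr1: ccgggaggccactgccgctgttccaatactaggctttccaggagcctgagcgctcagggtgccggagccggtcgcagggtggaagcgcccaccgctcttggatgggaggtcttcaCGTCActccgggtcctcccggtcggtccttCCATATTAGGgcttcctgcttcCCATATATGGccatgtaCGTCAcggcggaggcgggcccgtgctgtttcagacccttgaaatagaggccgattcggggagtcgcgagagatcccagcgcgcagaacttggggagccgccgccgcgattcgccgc
Over both strands, CArG boxes were found in 2 of the 8 called genes with a window (Egr1 and Klf6) and in 1 of 4 genes not called. They were found in 1.64% of all 27457 promoters and in 1.34% of the 9341 promoters of genes tested. The TGACG core was found in 6 of the 8 called genes, in 3 of the 4 not called and in 22.0% of all promoters. These matches describe letters in the windows and do not show binding.

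Dual specificity phosphatases, which end MAP kinase signals, had 3 of 15 measured members lower and 1 higher. Dusp1 fell (-0.53 ± 0.15, adjusted p = 0.0236), with 12.67 to 13.77 (median 13.25) in treated and 13.28 to 15.04 (median 13.71) in vehicle arrays, and lost the call without vehicle replicate 1 (difference -0.35) or 5 (adjusted p up to 0.0573). Dusp2 (-1.17) lost it without vehicle replicate 1, 2 or 8, and Dusp14 (-0.43) without vehicle replicate 1 or 4, and another probe of Dusp14 gave 0.26 without a call. Dusp19 rose (0.45 ± 0.10, adjusted p = 0.00524). The count of 4 was 2 without vehicle replicate 1 and in the fit on the 20 dTGR arrays.

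The glucocorticoid response list, which includes the receptor gene beside induced genes, had a median difference of -0.97. Of its 9 measured members 6 were called lower and 1 higher, and at least 7 were called in every alternative. Fkbp5, a co-chaperone of the glucocorticoid receptor, measured 9.57 to 10.76 (median 9.98) in treated arrays and 9.79 to 12.76 (median 12.38) in vehicle arrays, beside 9.27 to 10.28 (median 10.00) in Sprague Dawley arrays (-1.68 ± 0.30, adjusted p = 0.000743). Vehicle replicates 6 and 7 lay within the treated range and the other 6 above it. Zbtb16 (-1.67 ± 0.35), Zfp36, which destabilizes cytokine mRNAs (-1.25 ± 0.27), and Rasd1 (-1.13 ± 0.23) fell as well. The receptor gene Nr3c1 itself rose (0.31), with Errfi1 (-0.97) and Klf9 (-0.77) among the falls, all 3 named after their values were seen. Of 11 clock genes, Per2 (-1.08 ± 0.26, adjusted p = 0.0081) and Nfil3 (-0.85 ± 0.17, adjusted p = 0.00178) fell and none rose. The clock count reached 4 without vehicle replicate 6 or treated replicate 5 and 5 without vehicle replicate 7.

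Mt2A showed the largest fall of all genes called. Its levels were 6.37 to 8.41 (median 7.41) in treated, 6.66 to 13.38 (median 11.45) in vehicle and 5.97 to 7.24 (median 6.63) in Sprague Dawley arrays, an 8.48-fold lower mean in treated dTGR (-3.08 ± 0.55, adjusted p = 0.000743). Mt1f measured 8.16 to 9.31 (median 8.92) in treated and 8.66 to 12.94 (median 11.51) in vehicle arrays (-2.20 ± 0.36, adjusted p = 0.00051). For both genes vehicle replicates 6 and 7 lay within the treated range and the other 6 above it. Slc39a8, a zinc importer, rose (0.59 ± 0.18, adjusted p = 0.0284), and was not called without vehicle replicate 1, 4, 5 or 8 (adjusted p up to 0.0945). Of 7 measured members, 1 was called higher and 2 lower. Metallothioneins are close paralogues, and whether their probes share transcripts was not checked. Metallothionein genes are known targets of the zinc sensor MTF1, which binds metal response elements (TGCACNC or TGCGCNC on either strand). The windows of both genes (RefSeq, GRCr8, minus strand, Mt2A at chr19:10838659-10838958 and Mt1f at chrX:37814735-37815034) are shown to compare them, with the elements in capitals.
Mt2A: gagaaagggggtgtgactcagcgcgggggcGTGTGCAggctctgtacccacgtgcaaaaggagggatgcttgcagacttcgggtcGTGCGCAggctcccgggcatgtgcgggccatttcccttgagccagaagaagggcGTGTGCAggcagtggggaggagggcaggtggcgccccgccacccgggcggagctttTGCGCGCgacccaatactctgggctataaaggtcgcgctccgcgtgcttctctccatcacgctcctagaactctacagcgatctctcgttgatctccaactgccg
Mt1f: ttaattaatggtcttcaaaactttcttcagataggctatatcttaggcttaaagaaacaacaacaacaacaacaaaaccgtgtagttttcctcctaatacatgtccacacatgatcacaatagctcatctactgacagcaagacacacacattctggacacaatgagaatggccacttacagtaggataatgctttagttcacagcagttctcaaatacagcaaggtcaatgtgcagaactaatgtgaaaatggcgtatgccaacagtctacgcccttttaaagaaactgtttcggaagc
The Mt2A window holds 4 elements and that of Mt1f holds 0. The Mt1f window lies on another chromosome than that of Mt2A. Whether it is the promoter of the transcript that the Mt1f probe measures was not checked. At least 1 element was found in 25% of all promoters and at least 4 in 0.455%. Among promoters of genes tested 33.6% held at least 1. So did 6 of the 8 immediate early genes called lower with a window and 1 of the 4 not called. The letters were not tested for binding.

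In the list of NRF2 targets and antioxidant enzymes, 6 of 22 measured members were called lower and none higher. Hmox1, haem oxygenase 1, fell 3.65-fold, with 8.73 to 9.60 (median 9.05) in treated arrays, 8.78 to 12.11 (median 11.39) in vehicle arrays and 9.05 to 9.57 (median 9.28) in Sprague Dawley arrays (-1.87 ± 0.30, adjusted p = 0.000481). Txnip, counted in the list although it binds and inhibits thioredoxin, fell by a smaller amount (-0.51 ± 0.11, adjusted p = 0.00263). Nqo1 (-0.41) and Txnrd1 (-0.43) lost their calls without vehicle replicate 2, 4 or 5, and Txnrd1 also without treated replicate 2, 4 or 9 (adjusted p up to 0.0648 and 0.0829). Without vehicle replicate 5 the difference of Txnrd1 was -0.26. Gclc (-0.34) and Gclm (-0.29), the subunits of the enzyme that starts glutathione synthesis, are named after their values were seen. Of 26 genes of xenobiotic and aldehyde metabolism, 8 fell and 2 rose. Fmo2, a flavin monooxygenase, measured 10.09 to 11.48 (median 10.68) in treated and 10.46 to 14.01 (median 13.19) in vehicle arrays (-1.95 ± 0.32, adjusted p = 0.000481), and Fmo1 (-0.93 ± 0.15) and Sult1a1, a phenol sulfotransferase (-2.13 ± 0.38), fell too. Maob, monoamine oxidase B, rose (1.15 ± 0.24, adjusted p = 0.00296). Of 4 measured NADPH oxidase genes, Ncf1 was called higher (0.36 ± 0.10, adjusted p = 0.0202), and not without vehicle replicate 4 or 5 (adjusted p up to 0.0642).

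The integrated stress response, by which cells slow translation and raise amino acid genes, had 5 of 18 measured members lower and 2 higher. Cebpb, a transcription factor of this response and of acute inflammation, fell, with 7.92 to 8.59 (median 8.35) in treated and 8.39 to 10.69 (median 9.77) in vehicle arrays (-1.38 ± 0.21, adjusted p = 0.000422). Mthfd2 (mitochondrial folate enzyme, -0.98 ± 0.21), Nupr1 (-0.80 ± 0.20) and Ppp1r15a, which restarts translation (-0.67 ± 0.16), fell as well. Among 16 heat shock proteins and chaperones, Dnajb5 (-0.44 ± 0.11, adjusted p = 0.0101) and Hspa1b (-0.90 ± 0.28, adjusted p = 0.0382) fell, 12.5% of the list beside 9.79% over all genes. Hspa1b lost its call without any of vehicle replicates 1, 2, 4, 5 and 8 or treated replicates 1, 2, 6, 9 and 12 (adjusted p up to 0.0759), and its difference was -0.52 without vehicle replicate 1. Of 16 genes of muscle atrophy, mTOR and growth, 5 fell and 2 rose. Ddit4l, an inhibitor of mTOR signalling, rose 2.70-fold, with 8.92 to 9.81 (median 9.39) in treated and 6.14 to 9.76 (median 8.04) in vehicle arrays (1.43 ± 0.26, adjusted p = 0.00106), while its paralogue Ddit4 fell (-1.09 ± 0.30, adjusted p = 0.019; not called without vehicle replicate 4, 5 or 8). Cited4, a coactivator linked to physiological heart growth in mouse, rose (1.23 ± 0.30, adjusted p = 0.0081), and Irs2, an adaptor of the insulin receptor, fell (-1.24 ± 0.27, adjusted p = 0.00344).

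Genes induced by fasting and PPAR alpha had 5 of 14 measured members lower and 1 higher. Angptl4 measured 4.53 to 7.60 (median 5.98) in treated and 6.52 to 10.62 (median 9.58) in vehicle arrays (-2.60 ± 0.47, adjusted p = 0.000915). Pdk4, which blocks entry of pyruvate into the citric acid cycle, fell 2.82-fold (-1.50 ± 0.26, adjusted p = 0.000659), with 12.16 to 13.59 (median 13.05) in treated and 12.86 to 15.43 (median 14.79) in vehicle arrays. Pnpla2, the triglyceride lipase ATGL, fell (-0.45 ± 0.09), and G0s2, its inhibitor, rose (1.22 ± 0.25, adjusted p = 0.00263). In G0s2 vehicle replicate 6 reached above the treated range and replicate 7 lay within it. Among 28 measured genes that import or oxidise fatty acids, Ppara and Acsl1 rose and Cd36, the fatty acid transporter, fell (-0.29 ± 0.07, adjusted p = 0.00513), 10.7% of the list beside 9.79% over all genes. Acsl1 (0.24) lost its call without vehicle replicate 1, 2, 4 or 5 or treated replicate 2 (adjusted p up to 0.0912). The count of 3 rose to 5 without vehicle replicate 6 or treated replicate 9. None of 56 oxidative phosphorylation genes and none of 28 genes of pyruvate, citric acid, ketone and branched-chain catabolism was called, with medians of -0.03 and -0.00405. Atp5f1b, the catalytic subunit of ATP synthase, measured 15.69 to 16.06 (median 16.01) in treated and 15.87 to 16.05 (median 16.02) in vehicle arrays. Mdh2 (-0.05 ± 0.04) and Idh2 (-0.02 ± 0.04), enzymes of the citric acid cycle, gave small differences. In the citric acid list 1 or 2 members were called without Sprague Dawley replicate 8, vehicle replicate 1, 6 or 7, or treated replicate 1 or 9.

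Glucose genes were split, with 4 of 16 measured members higher and 2 lower. Eno3, the muscle enolase, measured 14.10 to 14.96 (median 14.42) in treated and 12.94 to 14.64 (median 13.72) in vehicle arrays (0.73 ± 0.13, adjusted p = 0.000939), and only vehicle replicate 7 lay within the treated range. The insulin-responsive transporter Slc2a4 rose (0.29 ± 0.08, adjusted p = 0.0199) and the basal transporter Slc2a1 fell (-0.46 ± 0.13, adjusted p = 0.0232). Slc2a4 was not called without vehicle replicate 2 or 5, and Slc2a1 not without vehicle replicate 2, 4 or 5. The count of 6 fell to 2 without vehicle replicate 2, 4 or 5 and to 3 without vehicle replicate 8.

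**Figure D4:**
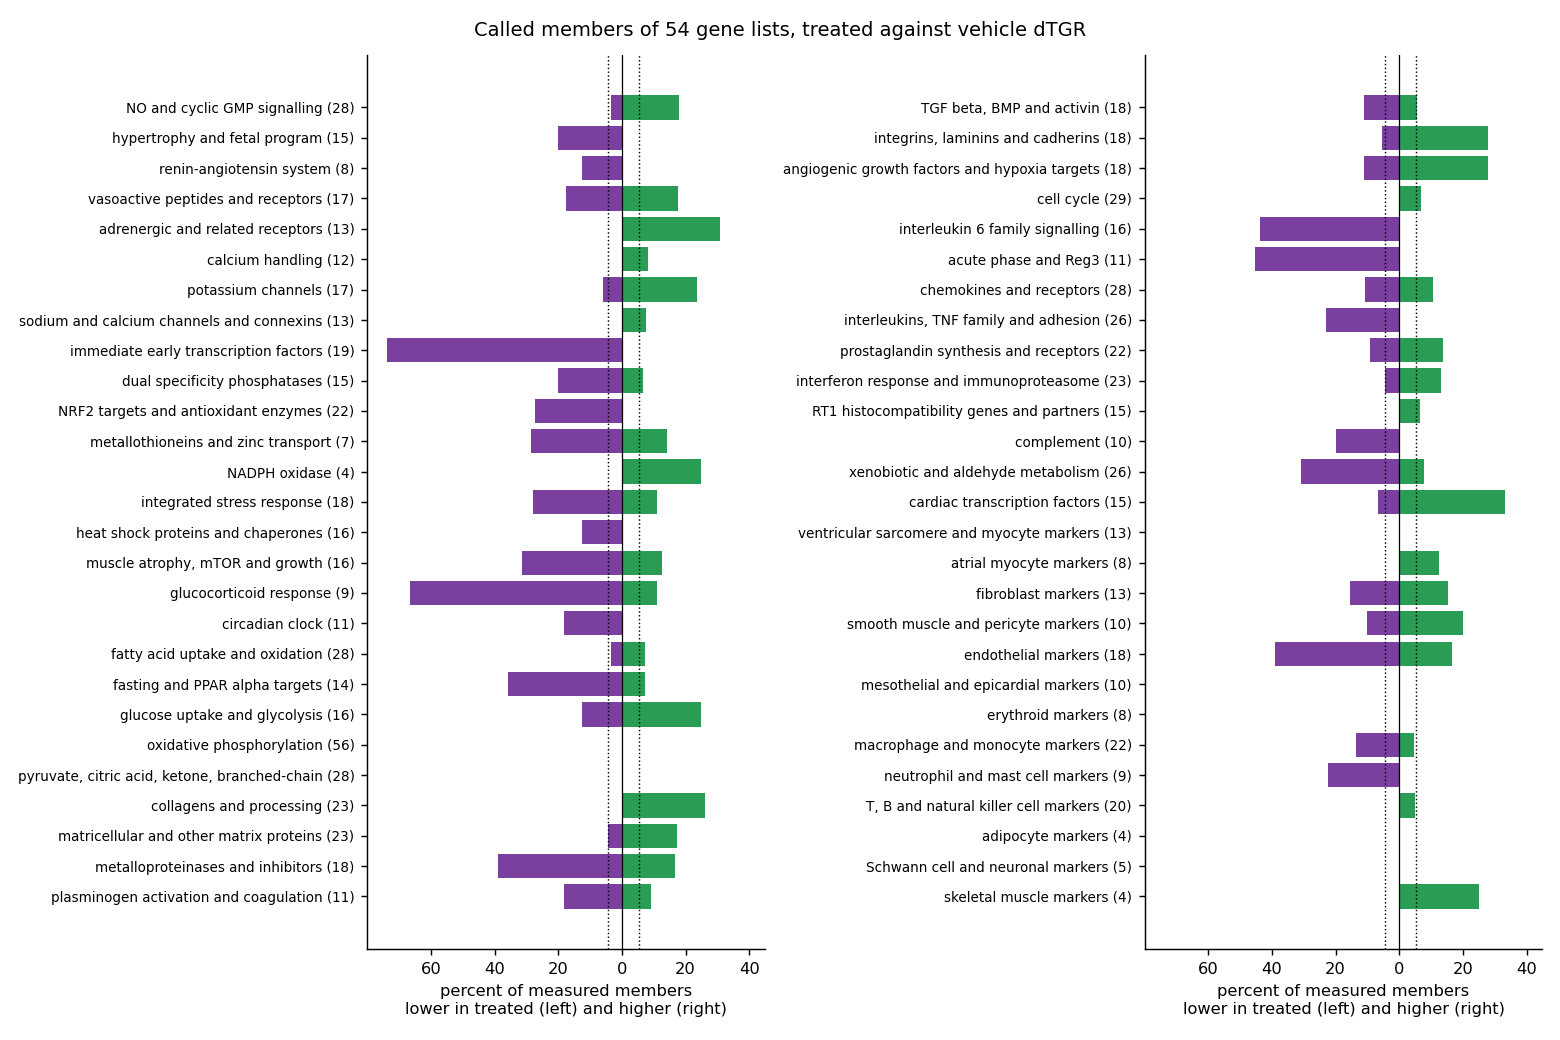
Percent of the measured members of each of 54 gene lists (number measured in brackets) that were called higher (right of 0, green) or lower (left of 0, purple) in treated against vehicle dTGR. Dotted lines mark the 5.37% called higher and the 4.42% called lower over all 11493 genes. Immediate early factors (14 of 19) and the glucocorticoid response (6 of 9) lean furthest to lower.

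Matrix genes were called mostly higher in treated dTGR. Of 23 collagens and processing genes, 6 rose and none fell, with a median of 0.26. Col3a1, a fibrillar collagen, measured 12.84 to 14.16 (median 13.20) in treated arrays and 11.29 to 13.23 (median 12.94) in vehicle arrays, beside 12.76 to 13.18 (median 13.07) in Sprague Dawley arrays (0.66 ± 0.18, adjusted p = 0.0164). Vehicle replicates 2, 4 and 5 lay below the treated range, with replicate 5 at 11.29, and the other 5 within it. Loxl1, which cross-links elastin, rose 2.02-fold (1.01 ± 0.26, adjusted p = 0.0131), and Serpinh1, the collagen chaperone HSP47, rose by 0.50 with an SE of 0.10 (adjusted p = 0.00274). Col1a1, named after its values were seen, just missed (0.63 ± 0.21, adjusted p = 0.0551). The count of 6 fell to 3 in the fit on the 20 dTGR arrays. It also fell to 3 without vehicle replicate 2, 4, 5 or 8, treated replicate 1, 6 or 10, or Sprague Dawley replicate 2, 3, 4 or 6. With vehicle replicates 6 and 7 left out it rose to 11. Of 23 matricellular and other matrix proteins, 4 rose and 1 fell. Cilp, a matrix protein of fibroblasts, measured 9.98 to 11.76 (median 10.69) in treated, 7.72 to 10.98 (median 9.77) in vehicle and 7.74 to 9.21 (median 8.45) in Sprague Dawley arrays (1.22 ± 0.29, adjusted p = 0.00741). Thbs2 (0.62 ± 0.15) and the proteoglycan Lum (0.61 ± 0.15) rose. Ccn1, an immediate early matrix protein, fell (-0.91 ± 0.28, adjusted p = 0.0344), and was not called without vehicle replicate 2 or 8 or treated replicate 2, 6 or 7, while without vehicle replicate 1 the difference was -0.50.

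Metalloproteinases and their inhibitors had 3 of 18 measured members higher and 7 lower. Adamts1 measured 11.10 to 11.92 (median 11.64) in treated and 11.35 to 15.17 (median 12.84) in vehicle arrays (-1.23 ± 0.27, adjusted p = 0.00421), and Mmp8, the neutrophil collagenase, fell (-1.18 ± 0.30, adjusted p = 0.0104). Mmp15, a membrane-bound enzyme, rose 1.94-fold (0.95 ± 0.16, adjusted p = 0.00051). Timp1, an inhibitor raised in fibrosis, fell (-0.96 ± 0.28, adjusted p = 0.0263), with 10.42 to 12.48 (median 11.18) in treated and 10.88 to 13.70 (median 12.14) in vehicle arrays, but was not called without vehicle replicate 1, 2, 4 or 5 (adjusted p up to 0.0869). The list's count fell to 6 without vehicle replicate 4 and in the fit on the 20 dTGR arrays. In plasminogen activation and coagulation, F3, tissue factor, fell (-1.18 ± 0.32, adjusted p = 0.0168; 0.0506 without vehicle replicate 1), Plat fell (-0.33) and Serpine2 rose (0.54), of 11 measured. The calls of Plat and Serpine2 ended without vehicle replicate 4, 5 or 8, and that of Plat also without replicate 1, so that 1 gene stayed called without any of these. In the TGF beta, BMP and activin list, 1 of 18 rose and 2 fell (16.7% called, beside 9.79% over all genes). Tgfbr3, betaglycan, kept its call in every alternative (-0.42 ± 0.11, adjusted p = 0.0106). That list held 1 call in the fit on the 20 dTGR arrays. The same held without vehicle replicate 1, 4, 5 or 8, treated replicate 1, 3, 6, 8 or 10, or Sprague Dawley replicate 1, 2 or 4. Of 18 integrins, laminins and cadherins, 5 rose and 1 fell. Itga4 rose (0.66 ± 0.17, adjusted p = 0.0136) and Lama5 fell (-0.66 ± 0.17, adjusted p = 0.0114), and the count was 3 without vehicle replicate 4 or 5.

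Angiogenic growth factors and hypoxia targets had 5 of 18 measured members higher and 2 lower. Fgf9 measured 9.28 to 9.67 (median 9.48) in treated and 7.31 to 9.39 (median 8.46) in vehicle arrays (1.13 ± 0.22, adjusted p = 0.0018), and Fgf16, a growth factor made by myocytes, rose alike (1.11 ± 0.22, adjusted p = 0.00178). The hypoxia targets Ndrg1 (-0.87 ± 0.16) and Bnip3, which drives mitophagy (-0.69 ± 0.11), fell (adjusted p = 0.00105 and 0.000481). Cardiac transcription factors had 5 of 15 higher and 1 lower. Gata5 measured 11.56 to 12.40 (median 11.91) in treated and 10.80 to 11.99 (median 11.36) in vehicle arrays (0.60 ± 0.11, adjusted p = 0.00143), Prox1 rose (0.52 ± 0.11), and Tbx5 fell (-0.64 ± 0.15, adjusted p = 0.00739). Of 29 cell cycle genes, 2 were called higher, Bub1b and Racgap1 (6.90%, beside 9.79% over all genes). Both calls ended without vehicle replicate 2 or 4, whereas 6 were called without vehicle replicate 6 and 4 without treated replicate 5.

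Interleukin 6 family signalling fell wherever it was called: 7 of 16 measured members were lower and none was higher, with a median of -0.41. Il6, the ligand, measured 5.71 to 7.11 (median 6.24) in treated and 6.64 to 9.93 (median 7.47) in vehicle arrays, beside 5.62 to 7.09 (median 6.46) in Sprague Dawley arrays (-1.32 ± 0.30, adjusted p = 0.00453). The receptors Il6r (-0.72 ± 0.16, adjusted p = 0.00453) and Osmr, the oncostatin M receptor (-1.02 ± 0.17, adjusted p = 0.000623), and the kinase Jak2 (-0.60 ± 0.15, adjusted p = 0.0109) fell. For Osmr vehicle replicates 6 and 7 lay within the treated range of 10.42 to 11.28 (median 10.86), and the others lay above it, up to 12.68. Lif (-0.59), Lifr (-0.31) and the transcription factor Stat3 (-0.53) complete the 7 and are named after their values were seen. Acute phase and Reg3 genes had 5 of 11 measured members lower. Reg3b, a secreted lectin that oncostatin M induces in mouse heart, measured 8.13 to 12.13 (median 10.01) in treated arrays, 9.49 to 15.02 (median 12.10) in vehicle arrays and 5.23 to 6.33 (median 6.03) in Sprague Dawley arrays (-1.88 ± 0.51, adjusted p = 0.0164; 0.056 without vehicle replicate 5). Orm1 fell (-1.56 ± 0.36, adjusted p = 0.00506), and Serpina3n (-1.55 ± 0.47) was not called without vehicle replicate 1, 4, 5 or 8 (adjusted p up to 0.0989). The count of 5 fell to 2 without vehicle replicate 1 or 5 and to 3 without vehicle replicate 4 or 8.

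Chemokines and receptors were divided, with 3 of 28 measured members higher and 3 lower. The neutrophil chemokine Cxcl1 fell (-1.01 ± 0.26, adjusted p = 0.0108), and Cxcl2 was at least 2.06-fold lower, with 4.64 to 6.20 (median 5.25) in treated arrays and 5.18 to 8.47 (median 7.07) in vehicle arrays (-1.45 ± 0.33, adjusted p = 0.00517). The receptor Cxcr4 rose, with 9.81 to 10.75 (median 10.38) in treated and 8.38 to 10.36 (median 9.39) in vehicle arrays (0.94 ± 0.17, adjusted p = 0.00106). The count of 6 was 12 without vehicle replicate 6. Of 26 interleukin, TNF family and adhesion genes, 6 were called lower and none higher. Nfkbia, the NF-kappa B inhibitor that NF-kappa B itself induces, measured 11.43 to 12.69 (median 11.85) in treated and 11.62 to 13.42 (median 13.28) in vehicle arrays (-0.94 ± 0.20, adjusted p = 0.00352). The decoy receptor Il1r2 was at least 1.81-fold lower (-1.10 ± 0.30, adjusted p = 0.0174; not called without vehicle replicate 1 or 5). The count of 6 fell to 1, 2 and 3 without vehicle replicates 5, 1 and 4. Prostaglandin genes had 3 of 22 higher and 2 lower, among them Ptgds, a prostaglandin D synthase (-0.95 ± 0.26, adjusted p = 0.0157), and Pla2g5, a secreted phospholipase (0.28 ± 0.06, adjusted p = 0.00529). Their count fell to 3 without vehicle replicate 1, 5 or 8 or treated replicate 4 and was 8 without vehicle replicate 7.

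Interferon genes and the immunoproteasome had 3 of 23 measured members higher and 1 lower. Psmb9, an immunoproteasome subunit, rose (0.51 ± 0.13, adjusted p = 0.00857) and Ifit3 fell (-0.56 ± 0.14, adjusted p = 0.0081), and the count was 2 without vehicle replicate 4 or 8. Cd74, the invariant chain, was the only call among 15 RT1 histocompatibility genes and partners, 6.67% beside 9.79% over all genes. It rose (0.26 ± 0.07, adjusted p = 0.0145), and the count was 2 without vehicle replicate 6 or 7 or treated replicate 3, 6 or 9. Of 10 complement genes, C1qb, with 11.10 to 12.09 (median 11.62) in treated and 11.66 to 13.07 (median 12.53) in vehicle arrays (-0.76 ± 0.15, adjusted p = 0.0018), and C1qc (-0.78 ± 0.17, adjusted p = 0.00393) fell, and 4 were called without vehicle replicate 6 or 7.

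Markers of cell types gave 11 calls upward and 15 downward among 144 measured, 18.1%, beside 9.79% over all 11493 genes and 25.1% of 752 measured pathway genes. In whole tissue, fewer cells of a type and less RNA per cell cannot be told apart. None of 13 ventricular myocyte markers was called, and their summed level (log2 of the summed intensity) was 19.38 to 19.47 in treated and 19.36 to 19.47 in vehicle arrays. In alternatives, 1 member was called without vehicle replicate 6 or 7 or treated replicate 1, 3 or 11. Endothelial markers had 7 of 18 measured members lower and 3 higher. Their summed levels were 16.14 to 16.29 (median 16.2) in treated and 16.16 to 16.65 (median 16.5) in vehicle arrays. Like the sums below, these include the called members and weigh the brightest most, so they do not give the amount of cells. Aqp1, a water channel (-0.59 ± 0.13), Sox17 (-0.63 ± 0.11) and the VEGF receptor Flt1 (-0.51 ± 0.10) fell and Esm1, a tip cell gene, rose (0.86 ± 0.22). Pecam1 and Kdr, defining markers of endothelium, were not measured. Cdh5, another defining marker, was measured, and 6 vehicle arrays lay within its treated range and 2 below it. Other endothelial genes, named after their values were seen, went both ways. For Tie1 and Emcn 5 vehicle arrays lay below the treated range, and for Esam 6 lay above it. Macrophage and monocyte markers had 3 of 22 lower and 1 higher, at 13.94 to 14.86 in treated and 14.20 to 14.88 in vehicle arrays. Lyve1 (-0.74 ± 0.13, adjusted p = 0.000659), which marks resident macrophages and lymphatic vessels, Lgals3 (-0.71 ± 0.16) and Clec10a (-0.70 ± 0.18) fell, Adgre1 was called higher (0.58; not without vehicle replicate 4, 5 or 8), and the count was 7 without vehicle replicate 7.

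Neutrophil and mast cell markers had 2 of 9 lower, S100a9 (-0.91 ± 0.23) and the mast cell tryptase Tpsb2 (-0.62 ± 0.16), with summed levels of 10.69 to 11.05 in treated and 10.75 to 11.47 in vehicle arrays. The mast cell protease gene Cpa3, named after its values were seen, was not called. Of its vehicle arrays 5 lay below the treated range, 1 within it and 2 above it. S100a8 was not measured. Fibroblast markers had 2 of 13 higher, Fap (0.64 ± 0.15) and Fndc1 (1.12 ± 0.32, adjusted p = 0.0218; not called without vehicle replicate 4, and 0.67 without vehicle replicate 5), and 2 lower, among them the fibroblast factor Tcf21 (-0.69 ± 0.18, adjusted p = 0.0121), with sums of 15.07 to 15.60 in treated and 14.87 to 15.26 in vehicle arrays. Their count was 2 without vehicle replicate 4 and in the fit on the 20 dTGR arrays. Smooth muscle and pericyte markers had 2 of 10 higher and 1 lower. Their summed levels were 14.61 to 14.82 (median 14.69) in treated and 14.55 to 15.45 (median 15.06) in vehicle arrays. These sums include the lower marker, and no sum without it was taken, so they do not give the amount of these cells. The lower one, Tinagl1, measured 11.51 to 11.96 (median 11.67) in treated and 11.54 to 14.38 (median 13.78) in vehicle arrays (-1.60 ± 0.26, adjusted p = 0.00051). It was the only one of the 3 called in the fit on the 20 dTGR arrays, and without vehicle replicate 2, 4, 5 or 8 or treated replicate 1, 3, 5, 6 or 10. Myh11, Acta2 and Rgs5, which define these cells, were not measured. Erythroid (8), mesothelial and epicardial (10), adipocyte (4) and Schwann cell and neuronal markers (5) held no call, and 1 mesothelial marker was called without vehicle replicate 6 or 7. Lymphocyte markers had 1 of 20 higher (5%, beside 9.79% over all genes), Cd8b (0.63, not called without vehicle replicate 4). Skeletal muscle markers had 1 of 4 higher, Tnnt3 (0.66, not called without vehicle replicate 5). The beta globin gene Hbb-b1 measured 10.80 to 13.10 (median 12.07) in treated and 11.22 to 13.31 (median 12.41) in vehicle arrays (-0.28 ± 0.27, adjusted p = 0.59). The part of these cell types in the differences of other genes was not tested.

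**Figure D5:**
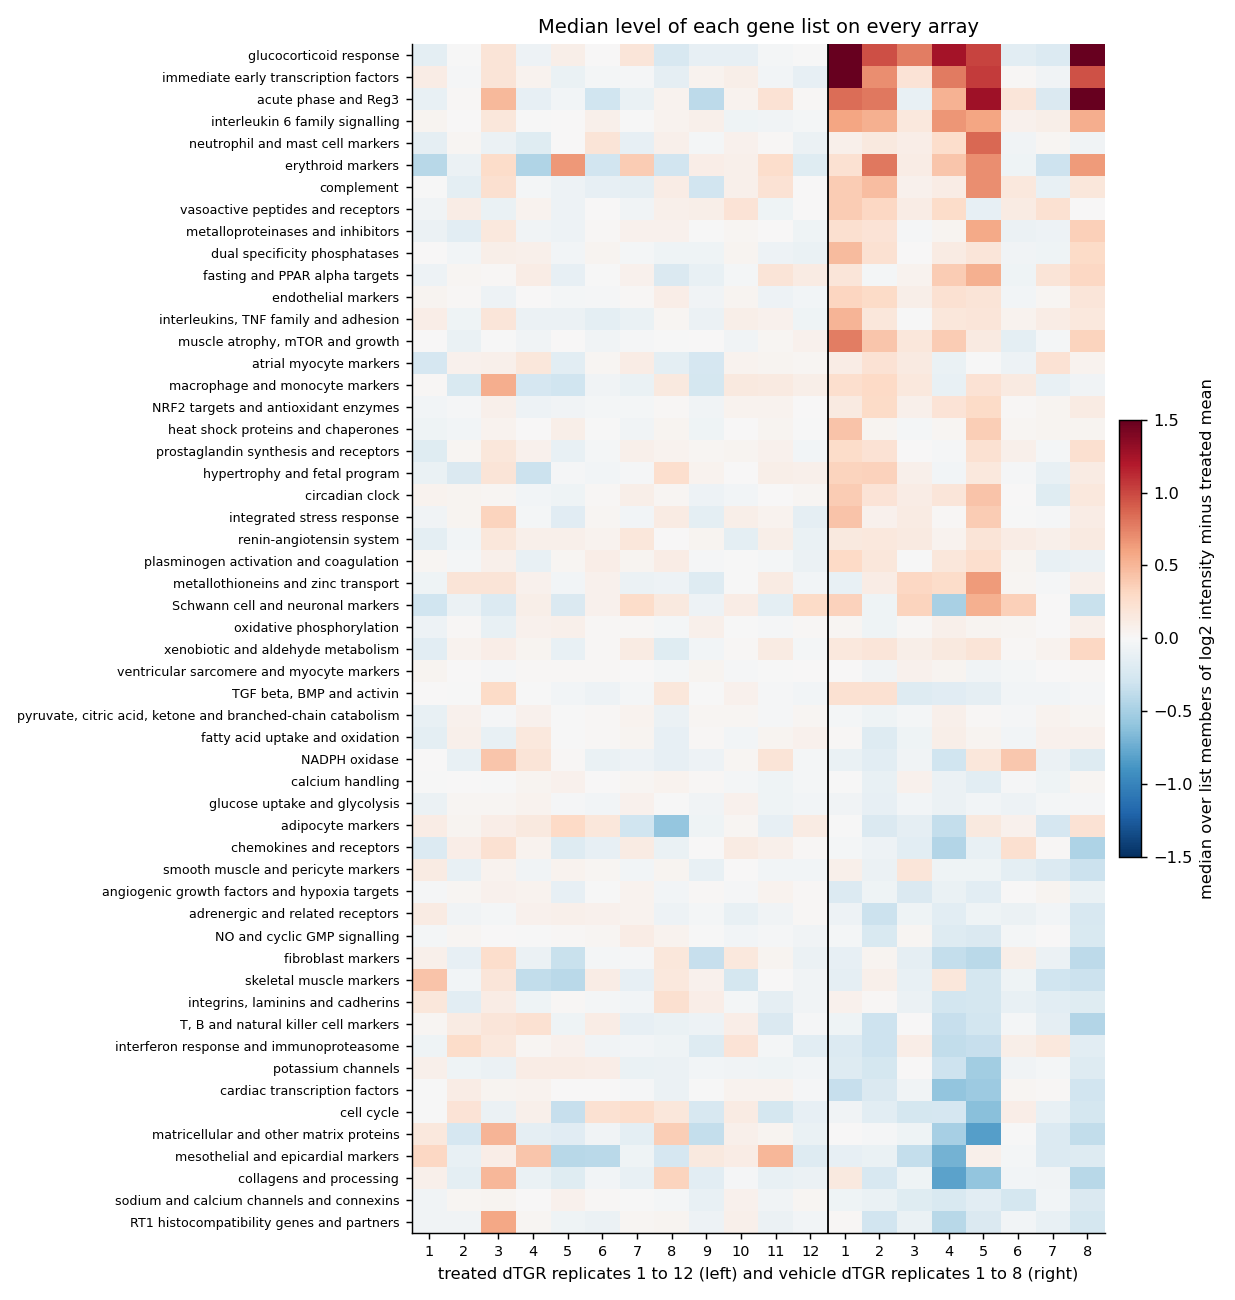
Median over the measured members of each of 54 lists of the log2 level minus the treated mean, for treated dTGR replicates 1 to 12 (left of the line) and vehicle dTGR replicates 1 to 8 (right). Rows run from the lowest to the highest median difference of treated minus vehicle, red is above and blue below the treated mean, and colours are capped at 1.5. Vehicle replicates 1, 2, 4, 5 and 8 carry the colour, and 6 and 7 are close to the treated arrays.

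The list medians of single arrays show how far the vehicle rats differed among themselves. Relative to the treated mean, the glucocorticoid list ran from -0.24 to 0.20 over treated arrays and from -0.21 to 2.44 over vehicle arrays (median 0.99). The immediate early list ran from -0.13 to 0.20 over treated arrays and from -0.05 to 2.58 over vehicle arrays (median 0.74). The collagen list ran from -0.19 to 0.50 over treated arrays and from -0.80 to 0.14 over vehicle arrays. Over all lists, 215 of 896 measured genes were called (24.0%, beside 9.79% over all genes), and the lists were chosen with earlier results of these data known.

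Among the 12 genes that rose most, those outside the lists included Lrrc3b (1.42 ± 0.28, adjusted p = 0.00184), Klk10, a secreted serine protease (1.57 ± 0.39, adjusted p = 0.00902), and Smim5 (1.22 ± 0.26, adjusted p = 0.0034). Lrrc3b measured 10.59 to 11.42 (median 10.98) in treated and 8.28 to 11.35 (median 9.21) in vehicle arrays, with vehicle replicates 6 and 7 within the treated range and the other 6 below it. Klk10 varied more in Sprague Dawley arrays (6.23 to 10.81 (median 8.94)) than in treated arrays (8.17 to 9.76 (median 9.19)), and vehicle arrays lay at 6.52 to 8.66 (median 7.46). Fcer2, a low-affinity IgE receptor (1.32), lost its call without vehicle replicate 4 or 5, and Scp2, a sterol carrier (1.20), without vehicle replicate 1, 2 or 4. Among the 12 that fell most, Map3k6, a stress kinase, measured 6.92 to 8.00 (median 7.57) in treated and 7.53 to 10.79 (median 9.76) in vehicle arrays (-1.88 ± 0.30, adjusted p = 0.000481). Tgm1, a transglutaminase (-2.08 ± 0.39), Tmem63c (-1.99 ± 0.39) and Trh, thyrotropin-releasing hormone (-1.91 ± 0.47), fell too. Trh measured 5.17 to 7.26 (median 6.43) in treated and 5.87 to 10.39 (median 8.93) in vehicle arrays, and vehicle replicates 3, 6 and 7 lay within the treated range.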

How the data were processed

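Left ventricular RNA of 28 rats was hybridised to 1-colour Affymetrix gene arrays, per the labels' protocols. The deposited intensity values were normalized by the authors with RMA, per the submitters' processing notes; RMA usually gives log2 values, these are on a linear scale, and the sources do not record the step between. Here log2 was taken, probes under the 30th percentile of mean intensity (50.2) were left out, and the brightest probe with a single symbol stood for a gene (14824 of 36685 probes have 1 symbol, 829 several, 21032 none). Cross-hybridisation was not checked. The difference was fitted with limma 3.58.1 (R 4.3.3, intensity trend) on all 28 arrays with 1 mean per group. The scripts were tested on simulated data. Named genes were the 12 highest and 12 lowest called, up to 4 called per list, every NO and cyclic GMP member, the 2 brightest of lists with no call, and 8 called for spread per direction; stable ones were described first. The members and lists were chosen with earlier results of these data known. Alternatives changed the arrays, weights, prior, filter, scaling, probe and offset; leaving out vehicle replicates 6 and 7, or 3, 6 and 7, was chosen after seeing the data. The fit took 1 spread per gene for all 3 groups, although vehicle arrays were the more widely spread in most genes. Its p-values therefore do not measure the vehicle spread alone. The labels call the samples separate rats but give no litter or day. The p-values thus measure the pooled spread between these samples, and the number of arrays limits precision.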

Additional observations from a re-analysis of the deposited data

Results flagged for a closer look

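The 8 vehicle values of 197 named genes and of the first principal component, 198 sets in all, were checked for a lone array, taken as a gap to the nearest array above 0.526 of the group's range. Chance flags about 1 in 20 such sets, and 12 were found, 5 in vehicle replicate 1, 5 in replicate 5 and 2 in replicate 7. Replicate 1 was highest for Atf3 (14.64, next 10.55), Ccn1 (15.51, next 12.85), Dusp1 (15.04, next 14.03), Hspa1b (9.879, next 7.41) and Il6 (9.934, next 8.031). Replicate 5 was lowest for Col3a1 (11.29, next 12.31), Fndc1 (6.348, next 9.082), Npr3 (8.085, next 9.595) and Tnnt3 (5.81, next 6.917), and highest for Txnrd1 (11.93, next 10.91). Replicate 7 was lowest for Atp5f1b (15.87, next 15.97) and highest for Pde3a (12.2, next 11.79).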

How the results depend on the processing

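Against 1125 genes called (617 higher, 508 lower), leaving out 1 array at a time gave 659 to 1558 (328 to 865 higher, 331 to 694 lower), with the lowest count without vehicle replicate 4. The 20 dTGR arrays alone gave 867, with 840 of the 1125 kept. With a variance weight per group 955 were called, with 952 of the 1125 kept. Without vehicle replicates 6 and 7 it was 2065 (1148 higher, 917 lower), with 1110 of the 1125 kept, and without 3, 6 and 7 it was 2259 (1265 higher, 994 lower), with 1096 kept. The 49 genes called for spread became 377 with deviations from the mean, 0 with squared deviations (limma; 1129 at an unadjusted p under 0.05), 18 without vehicle replicates 6 and 7, 3 without 3, 6 and 7, and 0 to 103 with 1 array left out. Of 161 named called genes, 106 kept the call in every alternative and 55 lost it in at least 1; another probe reversed Dusp14 (0.26), Notch3 (-0.048) and Pde4d (-0.046 and -0.22). The cause was not tested. No paired analysis was possible because the animal numbers of the groups do not overlap.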
